A study of Homo sapiens with 5 samples.

Results

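The 6 genes described here, MITF, TYR, TYRP1, MLANA, EDNRB and S100B, are genes of the pigment cell lineage, taken by name from the annotation of the array. Each was measured by 1 probe, and together they are 6 of the 2078 genes named on the array. The 6 genes were chosen with earlier results of these data known. RNA came from SK-MEL28, an established human cell line derived from a malignant melanoma, and was hybridised to 5 arrays of 2 colours. On every array the Cy3 channel held RNA of untreated SK-MEL28 cells and the Cy5 channel held RNA of treated cells. On 3 arrays, called the cisplatin arrays, the treated cells had received cisplatin alone, a platinum drug that crosslinks DNA. On the other 2 arrays, called the combination arrays, they had received cisplatin together with electroporation, in which short electric pulses make the cell membrane permeable. According to the labels, the cells were pulsed 8 times, each pulse lasting 100 µs at a field of 1300 V/cm, with a frequency of 1 Hz.

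All samples were of 1 cell line, so no second melanoma stands behind any value. The cisplatin dose and the time of harvest of the RNA samples were not given in the sources used here. For the cisplatin arrays the treatment protocol in the labels describes no drug, and the group rests on the title and on the description of the Cy5 channel. Cells given pulses without drug were not analysed here, so the effect of the pulses and of greater drug entry cannot be told apart. No label says that the arrays of a group had cultures of their own. The p-values therefore measure only how far these arrays differ, which may be technical. Treated RNA was Cy5 on all 5 arrays, so a dye preference of a probe cannot be told apart from an effect of treatment in either ratio to untreated cells. A preference that is constant for a probe cancels in the difference between the treatments. Fewer cells expressing a gene and less RNA per cell cannot be told apart in these samples.

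Pigment cells, or melanocytes, arise from the neural crest and make melanin inside organelles called melanosomes. MITF is the transcription factor that directs this lineage, and it binds short DNA motifs at genes of melanin synthesis, among them TYR, TYRP1 and MLANA. Endothelin acting on the receptor EDNRB is needed for the survival and migration of melanocyte precursors, and S100B is a calcium-binding protein used as a marker of melanoma.

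The sequences just upstream of these genes were searched for the motifs named below, and the windows that hold a match are shown. RefSeq start sites on GRCh38.p14 were listed for 5 of the 6 members, with 8 start sites in all, and the 160 bases before each were searched on both strands. The motif CATGTG, the core of the M-box that MITF binds, reads CACATG on the other strand. It was found in 2239 of 35116 windows of all genes, or 6.38%. The cAMP response element TGACGTCA, which reads the same on both strands, was found in 506 windows, or 1.44%. Capitals mark these motifs in the sequences, which are written 5′ to 3′ on the strand of the gene. The TYR window is chr11:89177715-89177874 on the plus strand, and holds CATGTG at 2 places.
TYR: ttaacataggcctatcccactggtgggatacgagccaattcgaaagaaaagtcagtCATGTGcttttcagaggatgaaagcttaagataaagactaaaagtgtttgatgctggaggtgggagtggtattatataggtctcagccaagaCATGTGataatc
The TYRP1 window is chr9:12693225-12693384 on the plus strand, and holds the motif once in each orientation.
TYRP1: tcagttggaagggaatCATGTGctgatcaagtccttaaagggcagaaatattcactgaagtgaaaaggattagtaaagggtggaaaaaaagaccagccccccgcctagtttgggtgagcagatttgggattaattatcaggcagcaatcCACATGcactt
The third listed start site of MITF, chr3:69936432-69936591 on the plus strand, lies downstream of the other two and holds the cAMP response element.
MITF: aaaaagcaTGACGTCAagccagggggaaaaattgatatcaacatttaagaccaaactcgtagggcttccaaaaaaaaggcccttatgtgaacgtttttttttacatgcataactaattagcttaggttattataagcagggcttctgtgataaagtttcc
The upstream start site of EDNRB, chr13:77919683-77919842 on the minus strand, holds the motif in the reverse orientation.
EDNRB: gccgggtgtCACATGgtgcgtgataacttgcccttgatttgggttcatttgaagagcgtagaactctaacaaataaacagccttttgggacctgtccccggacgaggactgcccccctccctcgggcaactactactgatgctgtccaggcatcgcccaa
Neither motif was in the windows of MLANA, of the other MITF starts or of the other EDNRB start. These matches describe the letters in the windows and say nothing of whether a factor was bound in these cells.

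The 5 arrays held 12788 spots of 3048 probes, and 2900 of the probes were printed as 4 spots. A probe was taken as above background where a share of at least 0.5 of its spots were more than 2 standard deviations of the local background above it. By that rule between 1535 and 1843 probes were above background in the untreated channel of an array, and between 1216 and 1824 in the treated channel. Across probes, the log2 ratios of any 2 arrays correlated with r between 0.17 and 0.55. The highest value was between arrays of different treatments, cisplatin array 1 and combination array 1. Within a treatment r was 0.20 to 0.42 with cisplatin and 0.22 with the combination. The number of arrays limits the precision: among probes above background, the median half-width of the 95% interval was 0.14 log2 units with cisplatin, 0.18 with the combination and 0.23 for the difference between them. Each SE and interval rests on a spread per probe that both treatments shared, and n beside an SE is the number of arrays in the mean.

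All 6 probes were above background in both channels on all 5 arrays, as were 1122 of all 3048 probes. Of the 7 melanocyte markers listed for the check of identity, 5 had a probe (MITF, SOX10, TYR, TYRP1 and MLANA), and all 5 were above background on every array. Markers of other cell types were not absent: 3 of 4 measured fibroblast markers, 3 of 5 of endothelium, 4 of 5 of epithelium, 3 of 5 of leukocytes and 2 of 3 of Schwann and neural cells were above background. One of the last is S100B itself. The markers were counted where at least 1 channel was above background on every array, which held for 1461 of all 3048 probes. With the combination, 5 of 5 epithelial, 4 of 5 leukocyte and 3 of 5 endothelial marker probes had mean log2 ratios below 0. So did 2 of 4 fibroblast, 2 of 3 Schwann and neural and 3 of 5 melanocyte probes. The median over all named genes was also below 0, at -0.0088. The counts include probes not above background, such as KRT18 and CD3E. None of the marker probes passed the adjusted test in limma, and their part in the ratios below was not tested. Whether these probes are specific for their genes was not tested.

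MITF, the master regulator of the lineage, had very different untreated levels on different arrays. The median raw intensity of its spots in the untreated channel was 1053.5, 919 and 187.5 on cisplatin arrays 1, 2 and 3, and 308 and 386.5 on combination arrays 1 and 2. In the treated channel the same medians were 780, 918.5 and 267.5 with cisplatin and 184 and 238.5 with the combination. Both channels were therefore high on cisplatin arrays 1 and 2 and low on the other 3 arrays, although every untreated channel held cells of the same line. After normalization the untreated log2 levels were 9.78, 9.72 and 8.07 on the cisplatin arrays and 8.19 and 8.21 on the combination arrays. Their standard deviation of 0.87 (n = 5) exceeded that of 97.6% of the 1395 probes above background in every untreated channel, whose median was 0.16.

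**Figure D1:**
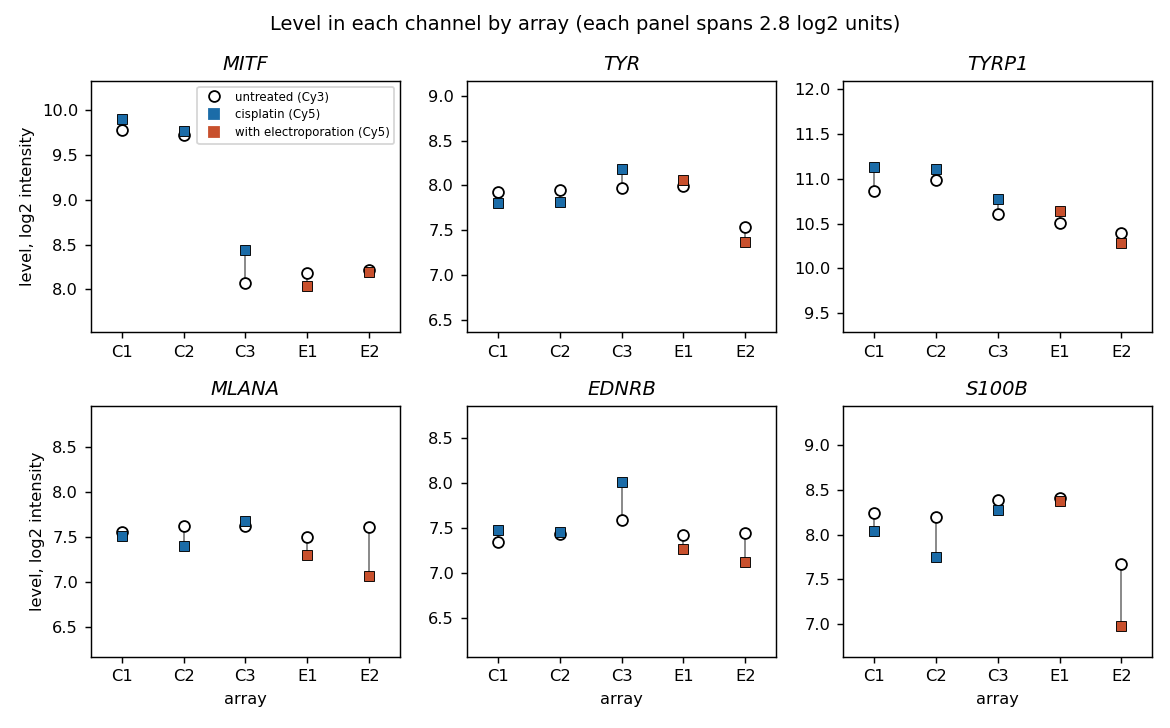
Normalized log2 intensity of each of the 6 genes (y axis) in the untreated and the treated channel of each array (x axis: C1 to C3, cisplatin arrays 1 to 3; E1 and E2, combination arrays 1 and 2). MITF stands near 9.8 in both channels of C1 and C2 and near 8 to 8.5 in both channels of the other 3 arrays.

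MITF was not the only probe that separated these arrays. Over the 1967 probes above background in an untreated channel, 10 differed by more than 1 log2 unit between the untreated channels of cisplatin arrays 1 and 2, and between 1 and 3 differed between any 2 of the remaining 3 arrays. Between an array of the first pair and one of the other 3, 38 to 51 probes differed by that much. MITF was among 5 probes for which both cisplatin arrays 1 and 2 lay more than 1 log2 unit above the other 3 arrays, with TTK, CNOT9, HRC and ST8SIA1, which are named here after their values were seen. Another 24 probes lay below by that much, and the cause was not tested. TYRP1 was higher by 0.30 to 0.60 log2 units on the same pair, and the other 4 genes differed by between -0.27 and 0.13. The arrays compared in each ratio are the same in both channels, so the MITF ratio is given below both over all arrays and without this pair.

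**Figure D2:**
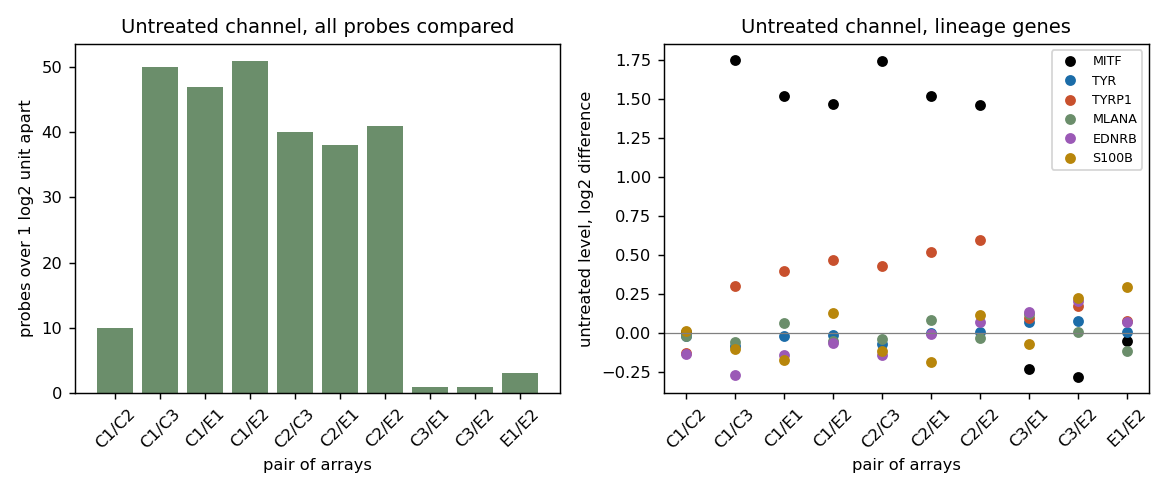
Left, number of probes (y axis) whose untreated log2 levels differ by more than 1 between each pair of arrays (x axis: C1 to C3, cisplatin arrays; E1 and E2, combination arrays). Right, the difference in untreated log2 level of each lineage gene for the same pairs, where MITF differs by 1.46 to 1.75 between C1 or C2 and any other array.

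The MITF log2 ratio of treated to untreated cells was 0.13, 0.048 and 0.38 on the cisplatin arrays and -0.14 and -0.021 on the combination arrays. All 3 cisplatin arrays lay above 0 and both combination arrays below 0, so the groups did not overlap. The sign on combination array 2 turned with the processing: the ratio was 0.0030 without the last listed spot, and 0 in the authors' deposited table. The mean with cisplatin was 0.18 ± 0.069 (SE, n = 3), and limma gave an adjusted p of 0.428 over all probes. It was 0.087 without cisplatin array 3 and 0.0085 with median centring in place of loess. In that setting the median of probes above background was at -0.11 with cisplatin, and relative to it MITF was at 0.11. With the combination the MITF mean was -0.082 ± 0.085 (SE, n = 2; limma adjusted p = 0.807). The difference, combination minus cisplatin, was -0.27 ± 0.11 (SE), with a 95% interval of -0.54 to 0.0099 and an adjusted p of 0.994 by limma. With a term that sets cisplatin arrays 1 and 2 apart, chosen after the data were seen, the difference was -0.46, which is the combination mean minus cisplatin array 3. It is given with no test, because 1 array stands for cisplatin.

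TYR encodes tyrosinase, the enzyme of the rate-limiting step of melanin synthesis. Its log2 ratio was -0.12, -0.14 and 0.21 on the cisplatin arrays and 0.072 and -0.17 on the combination arrays. The groups overlapped and each held values on both sides of 0. The mean was -0.017 ± 0.084 (SE, n = 3; limma adjusted p = 0.969) with cisplatin and -0.048 ± 0.10 (SE, n = 2; adjusted p = 0.915) with the combination. The 95% interval of the difference ran from -0.37 to 0.30. Its untreated log2 level was 7.93, 7.95, 7.97 and 7.99 on the first 4 arrays and 7.54 on combination array 2. With the median over spots in place of the mean, cisplatin array 1 and combination array 2 differed in it by -0.013.

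TYRP1, a melanosomal enzyme related to tyrosinase, was bright on every array. Its median raw intensity was 2435.5, 2113.5, 1141.5, 1511.5 and 1836 in the untreated channels, in the order of the cisplatin and then the combination arrays. In the treated channels it was 1944, 2240.5, 1393.5, 1207.5 and 1152. The log2 ratio was 0.27, 0.13 and 0.16 on the cisplatin arrays and 0.13 and -0.12 on the combination arrays. Every cisplatin array lay above 0, and combination array 1 lay just inside the range of the cisplatin arrays (0.134 against 0.132 on cisplatin array 2). The spots of combination array 1 were split, with log2 ratios of 0.43, -0.18, -0.12 and 0.41. TYRP1 had the narrowest error of the 6 genes: the mean with cisplatin was 0.19 ± 0.058 (SE, n = 3), a fold of 1.14 with a 95% interval of 0.044 to 0.34 on the log2 scale. It did not pass the test over all probes (limma adjusted p = 0.349). With the combination the mean was 0.0084 ± 0.071 (SE, n = 2; limma adjusted p = 0.983), and the difference was -0.18 ± 0.092 (SE; adjusted p = 0.994).

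MLANA encodes a melanosomal membrane protein that T cells recognise as a melanoma antigen. Its untreated level was 7.56, 7.62, 7.62, 7.50 and 7.61 log2 units, or 7.58 ± 0.052 (SD, n = 5), a range of 0.12 that was 0.32 without normalization between arrays. The treated level was 7.51, 7.40 and 7.67 on the cisplatin arrays and 7.29 and 7.07 on the combination arrays. Both combination levels were thus below every untreated and every cisplatin level. The raw medians behind them were 83 and 77 in the treated channel against 160 and 209.5 in the untreated channel of the same arrays, before any normalization of the dyes.

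The MLANA log2 ratio was -0.046, -0.22 and 0.048 on the cisplatin arrays and -0.21 and -0.54 on the combination arrays. Cisplatin array 2 and combination array 1 had nearly equal ratios, so the groups overlapped in the ratio. The combination mean was -0.38 ± 0.098 (SE, n = 2), a fold of 0.770 with a 95% interval of -0.62 to -0.13 on the log2 scale. Its unadjusted p in limma was 0.0101, and 2.76% of all probes had a smaller one. The adjusted p was 0.352, so MLANA did not pass. The value was -0.21 without combination array 2 and -0.68 with median centring. Relative to the median of probes above background in that setting, -0.23, it was -0.45. With cisplatin the mean was -0.072 ± 0.080 (SE, n = 3; limma adjusted p = 0.831), and the difference was -0.30 ± 0.13 (SE; adjusted p = 0.994).

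EDNRB, the endothelin receptor of the lineage, had the smallest p of the 6 genes for the difference between the treatments. Its untreated level was 7.34, 7.43, 7.59, 7.42 and 7.44 log2 units, or 7.44 ± 0.091 (SD, n = 5). The treated level was 7.47, 7.46 and 8.02 on the cisplatin arrays and 7.26 and 7.12 on the combination arrays. The combination levels lay below all 5 untreated levels, while the levels of cisplatin arrays 1 and 2 lay within their range and that of cisplatin array 3 above it. EDNRB and MLANA were the 2 of 6 genes whose combination levels were both below all untreated levels, against 6.56% of all probes. No member had all its cisplatin levels above all untreated levels, as 1.54% of all probes did.

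The EDNRB log2 ratio was 0.13, 0.029 and 0.43 on the cisplatin arrays and -0.15 and -0.33 on the combination arrays. As for MITF, all cisplatin values were above 0 and both combination values below 0. The single spots gave the same picture on combination array 2, with log2 ratios of -0.26, -0.39, -0.42 and -0.24. On cisplatin array 2 they lay on both sides of 0, at 0.16, -0.19, 0.14 and 0.0018. On each of the other arrays all EDNRB spots lay on the same side of 0 as their mean. The mean was 0.20 ± 0.083 (SE, n = 3; limma adjusted p = 0.480) with cisplatin and -0.24 ± 0.10 (SE, n = 2; adjusted p = 0.514) with the combination. The difference was -0.44 ± 0.13 (SE), with a 95% interval of -0.77 to -0.11. Its unadjusted p was 0.0183 in limma, 1.18% of all probes had a smaller one, and the adjusted p was 0.994. Set against cisplatin array 3 alone, as with the term for cisplatin arrays 1 and 2, the combination mean differed by -0.67, again resting on 1 array and given with no test. Without cisplatin array 3 the cisplatin mean was 0.082, and with median centring it was 0.065 and the combination mean -0.53. In that setting the median of probes above background was itself at -0.11 with cisplatin and -0.23 with the combination. Relative to it EDNRB was at 0.17 and -0.30.

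**Figure D3:**
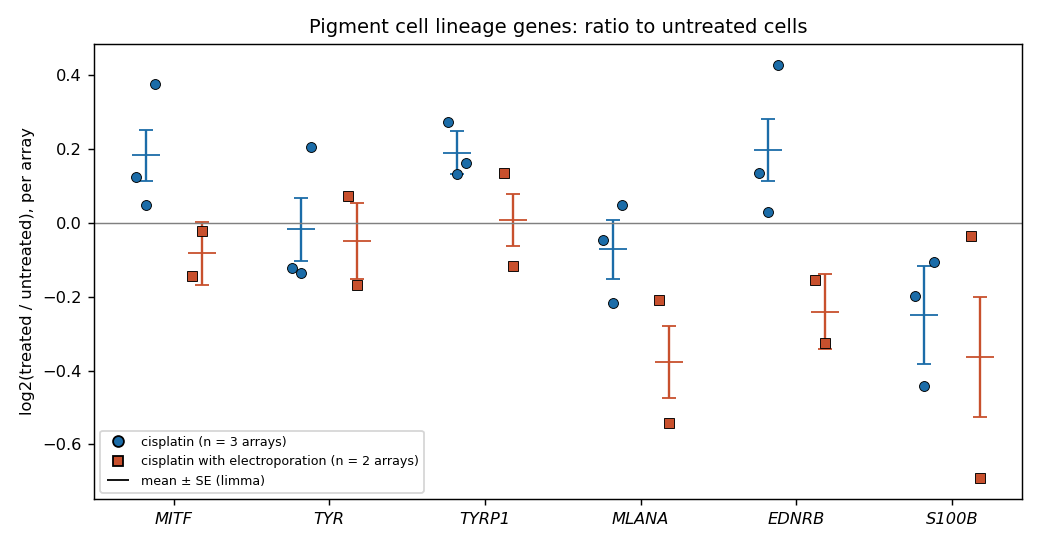
Log2 ratio of treated to untreated cells (y axis) of each gene (x axis) on each of the 3 cisplatin and 2 combination arrays, 1 point per array, with bars for the limma mean ± SE. For MITF and EDNRB all cisplatin points lie above 0 and both combination points below it, and for the other 4 genes the groups overlap.

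S100B had log2 ratios of -0.20, -0.44 and -0.11 on the cisplatin arrays and -0.034 and -0.69 on the combination arrays. All 5 values were below 0, and the combination arrays held both the highest and the lowest of them. The mean was -0.25 ± 0.13 (SE, n = 3; limma adjusted p = 0.604) with cisplatin and -0.36 ± 0.16 (SE, n = 2; adjusted p = 0.524) with the combination. The difference of -0.11 ± 0.21 (SE) had a 95% interval of -0.64 to 0.41. S100B thus had the widest error of the 6 genes, and its combination mean rested on array 2. Its 2 combination arrays lay 0.66 log2 units apart, a gap that the SE shared by both treatments does not measure on its own.

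On that array the last listed spot of a probe was often dim. Of 1766 probes compared there, 438 (24.8%) had a last spot under 0.5 of the median of the probe in the untreated channel, against 0.302% to 2.99% for any other spot position or array. The last S100B spot had a raw untreated intensity of 44, against 317 to 349 for the other 3 spots, and a log2 ratio of 0.073 against -0.89, -0.94 and -1.01. Without it the S100B ratio on combination array 2 was -0.95 in place of -0.69. The last TYR spot was at 46 against 281 to 291, but the TYR ratio was -0.18 without it and -0.17 with it. Without the last spot MLANA was at -0.55, EDNRB at -0.36 and TYRP1 at -0.12, each on the same side of 0, and MITF went from -0.021 to 0.0030.

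**Figure D4:**
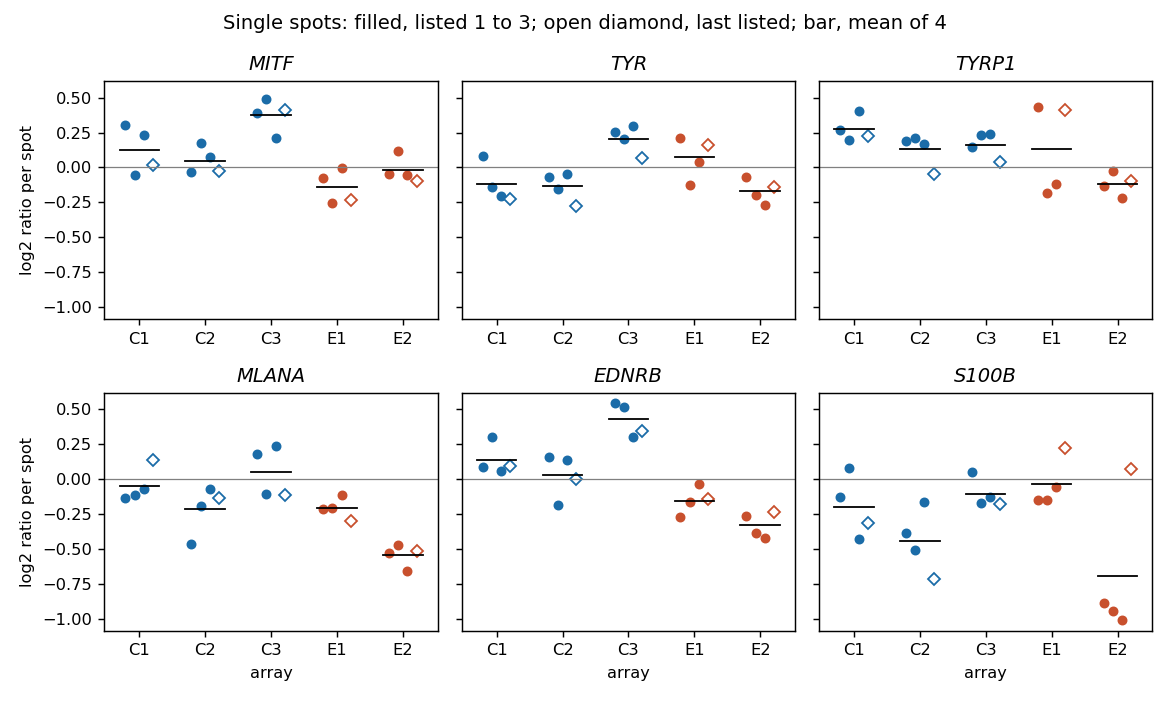
Log2 ratio of each single spot (y axis) for each gene on each array (x axis: C1 to C3, cisplatin arrays; E1 and E2, combination arrays), with the last listed spot as an open diamond and the mean of 4 spots as a bar. On E2 the last S100B spot lies at 0.073, above the other 3 spots at -0.89 to -1.01.

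None of the 6 genes passed an adjusted p of 0.05 in any of the 3 comparisons. Neither did any other probe: limma called 0 of 3048 (0%) with cisplatin, with the combination and between them, and the smallest adjusted p over all probes were 0.106, 0.0932 and 0.994. At an unadjusted p of 0.05, limma found 337 probes with cisplatin (11.1%), 304 with the combination (9.97%) and 107 for the difference (3.51%). By that weaker rule, MITF and TYRP1 were higher with cisplatin (2 of 6 genes, against 4.95% of all probes) and none was lower (against 6.10%). MLANA was lower with the combination (1 of 6, against 6.99%) and none was higher (against 2.99%). EDNRB was lower with the combination than with cisplatin (1 of 6, against 2.23%) and none was higher (against 1.28%). When single spots were tested with the array as a random block, limma called MITF (adjusted p = 0.0412) and EDNRB (0.0411) with cisplatin, MLANA (0.00255) with the combination and EDNRB (0.0471) for the difference. That fit called 133, 95 and 3 of all 3048 probes in the 3 comparisons. It counts the spots of 1 array as further observations, so its p-values rest on more than the 3 and 2 arrays. They are not a test over independent replicates.

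The 6 means were all lower with the combination than with cisplatin, but for TYR and S100B the sign depended on single arrays. With 1 array left out, the difference reached 0.089 for TYR and 0.22 for S100B. The share of all probes with a lower combination mean was not counted, and their median difference was also below 0. The median log2 ratio of the 6 genes was 0.083 with cisplatin, -0.16 with the combination and -0.22 for the difference, where the medians of all probes were -0.0014, -0.0066 and -0.0066. The 2 genes with no overlap between the treatments, MITF and EDNRB, compare with 10.7% of all probes for which all cisplatin arrays lay above both combination arrays, and with 10.1% of the probes above background. For 71 probes (2.33%) the cisplatin arrays were in addition all above 0 and the combination arrays both below 0, as for these 2 genes; among probes above background the share was 1.98%. Every cisplatin array lay above 0 for 3 of the 6 genes, MITF, TYRP1 and EDNRB (17.0% of probes above background), and below 0 for S100B alone among the members (21.7%). Both combination arrays lay below 0 for 4 of 6, MITF, MLANA, EDNRB and S100B (33.5%). Single arrays stood high or low for several genes at once. Cisplatin array 3 had the highest of the 3 cisplatin ratios for 5 of 6 genes, against 33.1% of the probes above background. Combination array 2 was below combination array 1 for 5 of 6, against 51.5%. TYRP1 was the exception in the first count and MITF in the second. What sets these arrays apart was not tested.

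The rest of the pathway is described by lists of related genes. Of 16 genes of the melanosome and of pigment synthesis, a list that includes TYR, TYRP1 and MLANA, 9 were measured. None passed the adjusted test in limma in either treatment. At an unadjusted p of 0.05, 1 was higher (against 4.95% of all probes) and 2 lower (against 6.10%) with cisplatin. With the combination 4 were lower (against 6.99%) and none was higher (against 2.99%). These 4 include the member MLANA, and MYO5A, whose probe was not above background on every array. The median of the list was -0.066 with cisplatin and -0.11 with the combination on the log2 scale, beside -0.0025 and -0.0088 for all named genes. CD63, a tetraspanin of late endosomes and melanosomes, had log2 ratios of -0.34, -0.034 and 0.054 with cisplatin and -1.02 and -0.89 with the combination. RAB38, a small GTPase that carries cargo to melanosomes, was below 0 on all 5 arrays, with means of -0.26 ± 0.040 (SE, n = 3) with cisplatin and -0.17 ± 0.049 (SE, n = 2) with the combination. GPNMB, a melanosomal glycoprotein, had means of -0.22 ± 0.059 and -0.13 ± 0.073 (SE). The members of this list thus did not share a direction with cisplatin, where TYRP1 stood above 0 and RAB38 and GPNMB below it.

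Of 15 lineage transcription factors and regulators, 8 were measured, and their median was 0.036 with cisplatin and -0.0090 with the combination. SOX10, the neural crest factor that activates MITF, had a mean of 0.12 ± 0.089 (SE, n = 3) with cisplatin and 0.024 ± 0.11 (SE, n = 2) with the combination. Of 16 receptors and ligands of the lineage, 8 were measured, with medians of -0.0043 and -0.020. NGFR, the low-affinity nerve growth factor receptor of the neural crest, had a mean of -0.24 ± 0.051 (SE, n = 3) with cisplatin. With the combination it was -0.074 ± 0.063 (SE, n = 2), from arrays at 0.036 and -0.19. The probe of KIT, the other main growth factor receptor of melanocytes, was not well above background on any array. Among 15 S100 proteins and melanoma markers, 7 were measured, with medians of -0.0049 and -0.025. CSPG4, a melanoma cell surface proteoglycan, had means of -0.17 ± 0.056 and -0.12 ± 0.068 (SE). MAGEA1 of the same list had means of 0.051 ± 0.13 and 0.23 ± 0.16 (SE), with arrays on both sides of 0 in each treatment. They were at 0.23, 0.12 and -0.20 with cisplatin and at -0.044 and 0.51 with the combination. No gene of these 3 lists passed the adjusted test in limma.

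Of 14 reported MITF targets outside pigment synthesis, 11 were measured, and their medians were 0.030 with cisplatin and 0.022 with the combination. CDK2, a cell cycle kinase, had log2 ratios of -0.33 and -0.30 on the combination arrays and between -0.030 and 0.056 on the cisplatin arrays. Of 13 genes of the low-MITF, invasive melanoma state, 6 were measured, with medians of -0.023 and -0.039. VIM, an intermediate filament protein, was below 0 on all 5 arrays, with means of -0.22 ± 0.063 (SE, n = 3) and -0.34 ± 0.077 (SE, n = 2). CD44, an adhesion receptor of the same list, had means of 0.12 and 0.13. No gene of either list passed the adjusted test in limma.

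The members were also compared by how alike their 5 ratios were, as the root mean square difference over the 5 arrays in log2 units. Among the members, MITF and EDNRB were closest (0.14), followed by MLANA and S100B (0.17) and MITF and TYRP1 (0.18), and MITF and S100B were farthest apart (0.46). Among 914 other named genes above background in both channels, the nearest to MITF were ENTR1 (0.046), PSMA2 (0.10) and IGF2R (0.10), where the median gene was at 0.25. ENTR1 (0.13) and PSMA2 (0.13) were also nearest to EDNRB, followed by DUSP5 (0.15). CACNA1H was nearest to both MLANA (0.092) and S100B (0.13), followed for MLANA by RPA3 and CYP21A2 and for S100B by NT5E and HINT1. The nearest to TYR were CNOT2 (0.044), TFDP2 and EHF, and the nearest to TYRP1 were TUBB3 (0.032), TSG101 and GSTM3. All of these distances share the same 5 hybridisations.

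The authors' deposited table of processed values ordered the 5 arrays as above for each gene but MLANA, for which combination array 1 and cisplatin array 2 changed places. In the authors' deposited table EDNRB was at 0.17, 0.041 and 0.54 on the cisplatin arrays and -0.22 and -0.43 on the combination arrays. MITF in the authors' deposited table was at 0.15, 0.064 and 0.44 and at -0.14 and 0, so that combination array 2 was at 0 and not below it. MLANA was at -0.28 and -0.71 on the combination arrays in the authors' deposited table.

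**Figure D5:**
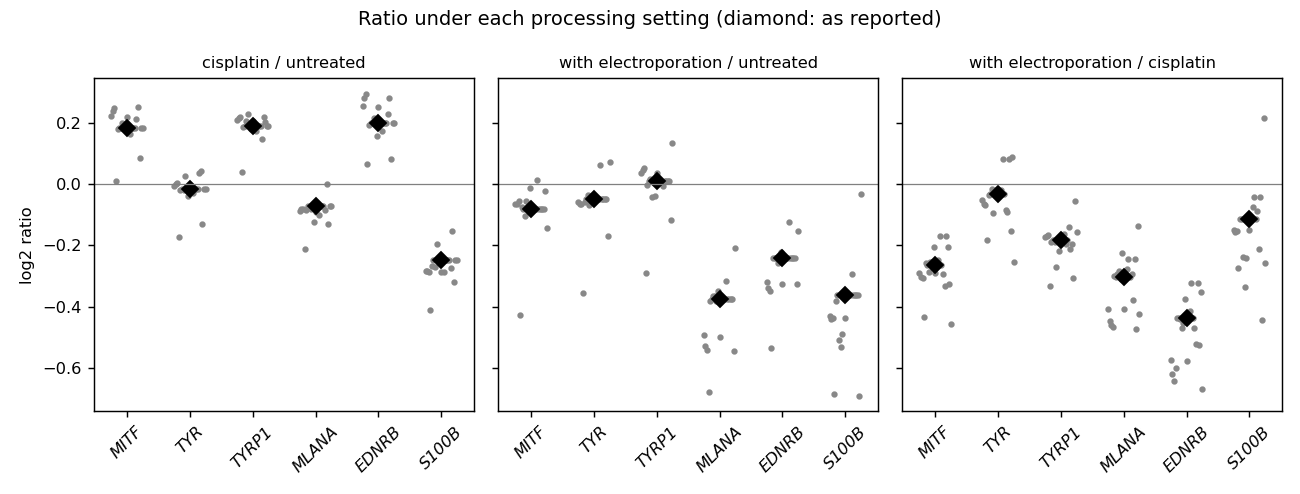
Log2 ratio of each gene (x axis) under each processing setting (1 point per setting, diamond for the value reported) for cisplatin, the combination and the difference between them. The difference for EDNRB ranged from -0.67 to -0.32 and that for MITF from -0.46 to -0.17, while TYR has settings on both sides of 0 in all 3 panels.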

How the data were processed

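Gene expression was measured in SK-MEL28 cells on 5 arrays of 2 colours, with 3 cisplatin and 2 combination arrays grouped by their titles. The deposited scanner files hold the median, mean and standard deviation of the raw intensity and local background of each spot per channel, per the file headers. RNA was amplified with amino allyl nucleotides and labelled Cy3 (untreated) or Cy5 (treated), per the labels' protocols. No source used here names the scanner or image software. The authors' deposited table holds log2 values of channel 2 over channel 1. Its scale and direction were found by setting it against the scanner values (r between 0.902 and 0.988), its column medians were 0.0040, -0.028, -5e-04, 0.023 and -0.016, and how it was centred stays unknown.

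Median foreground was background corrected (normexp, offset 50), log2 ratios were loess normalized within arrays (span 0.3), spots of a probe were averaged, and all 3048 probes were fitted in limma 3.58.1 (R 4.3.3). The fit had 3 residual and 2.47 prior degrees of freedom. Both treatments shared the estimate of the spread of a probe, so no SE comes from the arrays of its own treatment alone. Tests were two-sided with Benjamini-Hochberg adjustment over all probes and a threshold of 0.05. Levels were in addition Aquantile normalized between arrays and were described, not tested. The steps were tested on simulated data.

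Probes were named from the platform annotation: 2192 had 1 gene and 856 none. The 6 members and the related lists were chosen with earlier results of these data known. All members are named; from each list, up to 3 genes above background with the largest ratio could be named, and the 3 most alike genes per member by root mean square difference. A gene list used the brightest probe of a gene. Alternatives covered background correction, normalization, dim probes, spot summaries, the authors' table, the spread, arrays left out and a replicate block. A term for cisplatin arrays 1 and 2 was added after the data were seen.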

Additional observations from a re-analysis of the deposited data

Results flagged for a closer look

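The MITF ratio was above 0 on all cisplatin arrays and below 0 on both combination arrays, with a difference of -0.27 log2 units (combination minus cisplatin). Its sign on combination array 2, at -0.021, was not stable: it was 0.0030 without the last listed spot and 0 in the authors' deposited table. The EDNRB ratio was split by treatment in the same way, with a difference of -0.44. In limma the test of each difference gave an adjusted p of 0.994, so neither passed over all probes.

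The TYR untreated level on combination array 2, at 7.54 log2 units, stood apart from the other 4 arrays, which lay between 7.93 and 7.99. The S100B untreated level on the same array, at 7.67, stood apart from the others at 8.19 to 8.40. Chance flags about 1 group in 20 in this way, and 6 groups were examined. For both genes the last of the 4 spots was dim on this array, at raw intensities of 46 and 44, where the other 3 spots of each were at 281 to 291 and 317 to 349.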

How the results depend on the processing

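Over 3 comparisons of 6 genes and all alternatives, 356 values kept their direction and side of the threshold, 18 reversed and 4 came to pass it. Some settings alter only the estimate of spread, or leave out an array of the other treatment. The ratio could not change there, so the count of values that kept their direction includes values fixed in advance. The cause of a change was not tested except where named. A fit on single spots (array as random block) called 2 of the 6 genes with cisplatin, 1 with the combination and 1 for the difference, treating spots of an array as further observations. The number of all probes called was 0 in each comparison. With cisplatin it became 4 without background correction, 1 in the authors' deposited table and 133 with single spots. With the combination it became 10, 8 and 95 in the same settings, 35 with median centring, 1 with scale normalization, 11 over probes above background alone and 9 with a trended, robust variance. It ranged from 0 to 93 when 1 array was left out, with 93 without combination array 1 and 1 without cisplatin array 3. For the difference it became 3 with single spots and ranged from 0 to 47, with 47 without combination array 1.

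Values near 0 changed sign. TYR with cisplatin was 0.0030 with plain subtraction and 0.025 over the first 3 spots. TYRP1 with the combination was -0.29 with median centring, -0.0019 with scale normalization, -0.042 over the first 3 spots and -0.039 with mean foreground. Leaving out arrays gave -0.13 to 0.042 for TYR and -0.13 to 0.0011 for MLANA with cisplatin, -0.12 to 0.13 for TYRP1 and -0.17 to 0.072 for TYR with the combination, and -0.15 to 0.089 for TYR and -0.44 to 0.22 for S100B in the difference. Median centring moved the median of probes above background to -0.11 with cisplatin and -0.23 with the combination; relative to it MLANA was at -0.45 with the combination and TYRP1 at -0.059. It also moved values that kept their sign: with cisplatin MITF was at 0.0085, TYRP1 at 0.041, EDNRB at 0.065, MLANA at -0.21 and S100B at -0.41, and with the combination MITF was at -0.43, EDNRB at -0.53, MLANA at -0.68 and S100B at -0.68. Relative to the moved medians, EDNRB was at 0.17 with cisplatin and -0.30 with the combination, and MITF at 0.11 and -0.19. Without cisplatin array 3, MITF was at 0.087, EDNRB at 0.082 and MLANA at -0.13 with cisplatin, and without cisplatin array 2 S100B was at -0.15. With the combination, array 1 alone gave -0.15 for EDNRB, -0.21 for MLANA, -0.14 for MITF and -0.034 for S100B, and array 2 alone gave -0.33, -0.54, -0.021 and -0.69.

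Same-numbered arrays were linked here by their number alone, and their deviations correlated with r of 0.34 and 0.12 over 2 pairs. With 2 combination arrays the deviations mirror each other (0.34 and -0.34 against cisplatin array 1), so these values are no test of the pairing. Whether a pair shared more than its number was not tested. With the replicate block, MITF was at 0.014, TYR at 0.063 and TYRP1 at -0.0048 with the combination, TYR was at 0.081 in the difference, and 0 of the 6 genes were called in any comparison. MLANA untreated levels spanned 0.32 log2 units without Aquantile normalization and 0.12 with it, so that EDNRB, at 0.19, then had the narrower range.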
